A study of Mus musculus with 16 samples.

Results

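Basal and myoepithelial transcripts were followed in whole mammary glands of SV40 T antigen transgenic mice through 10 genes. These are the basal keratins Krt5, Krt14 and Krt17, the transcription factor Trp63, the contractile genes Acta2, Myh11, Mylk, Cnn1 and Tagln, and the oxytocin receptor Oxtr. Every probe set on the array whose only gene symbol was one of these names was taken, which gave 22 of 45101 probe sets. They stand for 10 of the 18193 genes that had a probe set with a single symbol. The glands came from females of the FVB/N strain, homozygous for large T antigen under C3(1), a promoter fragment that comes from the rat gene of prostatic steroid binding protein. After weaning, which came at the same age in every group, the mice lived either singly (isolated) or with other females (grouped). Thoracic glands were taken at 15 or 20 weeks of age, in estrus and at a fixed hour of the dark phase. Each of the 4 combinations of housing and age had 4 arrays, and every group carried the transgene, so no group shows a gland without it. The design text asks how gene expression in the thoracic gland differs between isolated and grouped females, and the ages add a comparison of 20 with 15 weeks under each housing. The arrays are numbered within a group, but the labels do not say that each was a different mouse, so the tests speak to the spread among these arrays, which may be technical.

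The mammary duct and alveolus have an inner luminal layer and an outer basal layer that rests on the basement membrane. Most basal cells are myoepithelial cells, which carry keratins of stratified epithelium and p63 together with the contractile proteins of smooth muscle. They shorten when pituitary oxytocin binds its receptor, which is how milk is ejected during suckling. Krt5 and Krt14 form the keratin pair of basal layers, Krt17 is a keratin of appendages and of activated or injured epithelium, and Trp63 encodes p63, a member of the p53 family needed for the basal state. Acta2 (smooth muscle actin), Myh11 (smooth muscle myosin heavy chain), Mylk (myosin light chain kinase), Cnn1 (calponin) and Tagln (transgelin) are also made by the smooth muscle of vessels. In whole tissue, fewer cells of a type and less of a transcript per cell cannot be told apart.

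Both kinds of gene have well known regulators, and a pair of promoters is shown because each holds letters that such a regulator binds elsewhere. Serum response factor binds the CArG box of smooth muscle genes, and p63 binds the p53-family half-site. The 250 bases before the start listed by RefSeq (GRCm38.p6) were matched for 6 of the 10 genes, namely Krt5, Krt14, Acta2, Mylk, Cnn1 and Oxtr. The Acta2 window lies at chr19:34255374-34255623 on the minus strand and overlaps the annotated gene. The Krt5 window lies at chr15:101712906-101713155 on the minus strand, directly next to the annotated gene. The windows of Krt14, Mylk and Oxtr lie wholly within the annotated genes, and that of Cnn1 overlaps its gene in part. Capitals mark CArG-like boxes in Acta2 and the half-site in Krt5.
Acta2: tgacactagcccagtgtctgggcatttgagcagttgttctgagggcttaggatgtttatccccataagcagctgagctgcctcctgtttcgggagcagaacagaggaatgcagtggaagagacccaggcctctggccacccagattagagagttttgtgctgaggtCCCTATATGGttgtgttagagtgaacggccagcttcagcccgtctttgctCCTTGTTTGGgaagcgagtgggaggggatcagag
Krt5: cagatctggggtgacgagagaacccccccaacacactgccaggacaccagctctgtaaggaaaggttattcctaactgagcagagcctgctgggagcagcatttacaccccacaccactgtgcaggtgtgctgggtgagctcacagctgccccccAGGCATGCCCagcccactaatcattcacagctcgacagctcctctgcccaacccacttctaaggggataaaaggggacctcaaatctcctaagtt

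The boxes of Acta2 span positions -84 to -75 and -34 to -25 from the start, and the half-site of Krt5 spans -95 to -86. Both strands were searched. The exact CArG box was found in 0 of the 6 windows and in 1.47% of 32851 promoters of the same length. With up to 1 of its 6 central letters other than A or T, it was found in Acta2 alone among the 6 windows and in 8.59% of all promoters. The half-site was found in 1 of 6 windows and in 7.13% of all promoters, and TATAAA was found in 0 of 6 and in 12.4%. These matches describe letters in a window and are not binding sites measured here. A window within a gene may not be the promoter used in the gland, so its lack of a match says nothing of other starts.

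Levels are the deposited log2 values, on which a difference of 1 is a doubling. Array medians lay between 8.09 and 8.11 at 15 weeks and between 8.31 and 8.34 at 20 weeks, and the median gene stood 0.23 higher at 20 weeks. Arrays were therefore centred on the median of their genes before ages were compared. Age and any difference in array processing between the ages cannot be told apart. Each gene was represented by its brightest probe set, and the lowest value of the 10 genes on any array was 7.30 (Myh11). That is above the lower quartiles of the arrays, which lay between 6.76 and 7.04. A lower quartile is not a detection limit, and no detection calls were used.

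**Figure D1:**
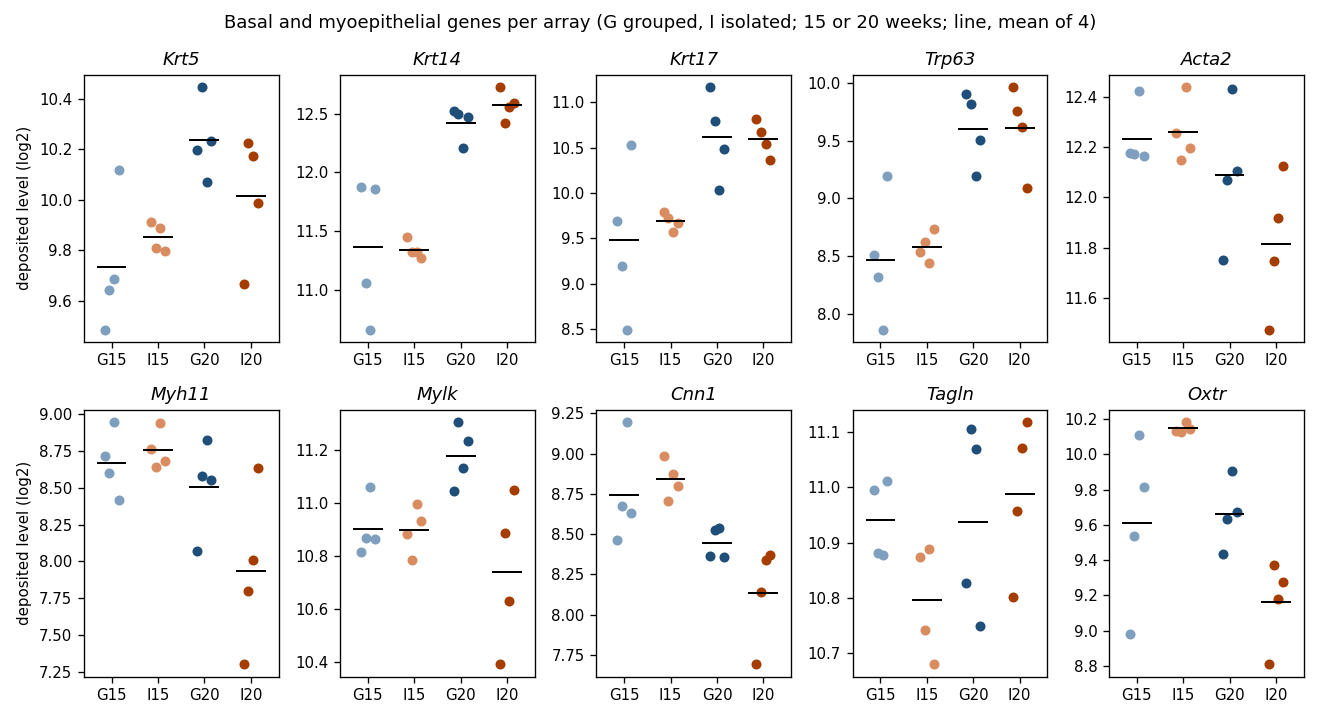
Deposited log2 level of each of the 10 genes on each of the 16 arrays, with 4 points for a group and a line at their mean; G is grouped, I is isolated, and the number is the age in weeks. Krt14 lies at 12.21 or more on every array at 20 weeks and at 11.88 or less on every array at 15 weeks, and the vertical scale differs between panels.

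The keratins and Trp63 were compared between the ages first. Krt14 and Trp63 were higher at 20 than at 15 weeks under both housings, by 1.74-fold to 2.02-fold, and Krt17 was higher in isolated mice. Krt5, the partner of Krt14 in basal keratin filaments, passed the test in neither housing. In grouped mice 2 of these 4 genes rose and 0 fell, beside 18.8% of all genes that rose, and the median difference was 0.87 against 0.01 over all genes. In isolated mice 3 of 4 rose and 0 fell, beside 26.2% of all genes that rose, and the median difference was 0.75 against 0.01.

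Krt14 at 15 weeks had levels of 11.88, 11.06, 10.66 and 11.86 on the grouped arrays and 11.45, 11.32, 11.32 and 11.27 on the isolated arrays, each in the order of replicates 1 to 4. At 20 weeks Krt14 had levels of 12.53, 12.50, 12.21 and 12.47 in grouped and 12.73, 12.42, 12.56 and 12.59 in isolated mice. All arrays at 20 weeks lay above all arrays at 15 weeks, and the grouped arrays at 15 weeks were spread widely. After centring, Krt14 was 0.84 higher at 20 weeks in grouped mice (SE 0.25, adjusted p = 0.0244, limma) and 1.01 higher in isolated mice (SE 0.08, adjusted p = 3.32e-05, limma), which is 1.79-fold and 2.02-fold. Its brightest probe set is of a type that may also read related keratins. Another Krt14 probe set without that mark gave 0.92 and 1.17 for the same differences.

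Trp63 had levels of 8.51, 8.32, 7.87 and 9.19 in grouped and 8.53, 8.62, 8.45 and 8.73 in isolated mice at 15 weeks. By 20 weeks the Trp63 levels were 9.90, 9.81, 9.19 and 9.51 in grouped and 9.96, 9.76, 9.62 and 9.09 in isolated mice. The isolated arrays of the ages were apart, whereas in grouped mice the highest array at 15 weeks met the lowest at 20 weeks and the groups overlapped after centring. The centred difference was 0.91 in grouped mice (SE 0.25, adjusted p = 0.0184, limma) and 0.80 in isolated mice (SE 0.17, adjusted p = 0.0035, limma). All 4 Trp63 probe sets were higher at 20 weeks in both housings when every probe set was tested, by 0.43 to 0.90 in grouped and 0.47 to 0.80 in isolated mice. The dimmest of them, at 6.35 to 6.60, lay below the lower quartile of every array at 15 weeks and above it, at 7.22 to 7.52, at 20 weeks.

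Krt17 showed the widest spread of the 10 genes among grouped mice at 15 weeks, with levels of 9.69, 9.19, 8.49 and 10.53, against 9.79, 9.73, 9.57 and 9.66 in isolated mice. The levels of Krt17 at 20 weeks were 11.17, 10.79, 10.03 and 10.48 in grouped and 10.82, 10.68, 10.54 and 10.36 in isolated mice. Grouped arrays of the ages overlapped and isolated arrays did not. The centred difference of Krt17 was 0.69 in isolated mice (SE 0.11, adjusted p = 0.0007, limma) and 0.92 in grouped mice, where the SE was 0.39 and the adjusted p of 0.0855 missed the threshold of 0.05. With all 16 arrays in the fit the isolated call was lost (SE 0.31, adjusted p = 0.0739, limma), and the grouped difference passed (adjusted p = 0.0266, limma). In deposited values the grouped difference was 1.14 and passed (adjusted p = 0.0271, limma). A dim second Krt17 probe set, with a mean of 6.43, went the other way by -0.28 in isolated mice (adjusted p = 0.0104 among all probe sets, limma).

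Krt5 ranged from 9.49 to 10.12 in grouped and from 9.80 to 9.91 in isolated mice at 15 weeks. It ranged from 10.07 to 10.45 in grouped and from 9.67 to 10.23 in isolated mice at 20 weeks. Its centred age differences were 0.28 in grouped mice (adjusted p = 0.106, limma) and -0.06 in isolated mice (adjusted p = 0.664, limma). In deposited values without centring, the grouped difference of Krt5 was 0.50 and passed the test (adjusted p = 0.0085, limma).

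Most contractile genes and Oxtr were lower at 20 weeks in isolated mice, and 1 of them was in grouped mice. In isolated mice 5 of these 6 genes were lower at 20 weeks, namely Oxtr, Myh11, Cnn1, Acta2 and Mylk, and 0 were higher, beside 23.3% of all genes that fell. The median difference of the 6 genes was -0.80 against 0.01 over all genes. In grouped mice 1 of 6, Cnn1, was lower and 0 were higher, beside 18.6% of all genes that fell, and the median difference was -0.30 against 0.01. In deposited values 0 of the 6 were lower and 1, Mylk, was higher in grouped mice, and 4 were lower and 0 higher in isolated mice. There 4 of the 4 keratins and Trp63 were higher in grouped and 3 in isolated mice, beside 56% and 57.3% of all genes that were higher and 6.41% and 9.33% that were lower. Over all 10 genes, 8 passed in isolated mice beside 49.5% of all genes, and 3 passed in grouped mice beside 37.4%. Groups of the ages did not overlap, after centring, for 7 of 10 genes in isolated mice beside 47.3% of all genes, and for 3 of 10 in grouped mice beside 35.8%.

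Oxtr, the receptor through which oxytocin makes myoepithelium contract, had levels of 10.13, 10.13, 10.19 and 10.14 in isolated mice at 15 weeks and 8.81, 9.37, 9.18 and 9.28 at 20 weeks. The corresponding levels in grouped mice were 8.98, 9.54, 10.11 and 9.82 at 15 weeks and 9.43, 9.64, 9.90 and 9.67 at 20 weeks. The isolated arrays of the ages were far apart, and those of grouped mice overlapped. Oxtr was 1.21 lower at 20 weeks in isolated mice (SE 0.10, adjusted p = 3.51e-05, limma), a 2.31-fold decrease, and the difference in grouped mice was -0.17 (SE 0.21, adjusted p = 0.532, limma). A second Oxtr probe set, tested among all probe sets, was lower at 20 weeks by 0.54 in isolated mice (adjusted p = 0.000578, limma). In grouped mice its centred difference of -0.34 also passed (adjusted p = 0.0142, limma), unlike that of the brighter probe set. The second probe set had deposited means of 9.01 at 15 and 8.90 at 20 weeks in grouped mice. In isolated mice they were 9.08 and 8.76. These deposited differences were not tested.

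Myh11, the myosin heavy chain of differentiated smooth muscle, had levels of 8.76, 8.64, 8.94 and 8.68 in isolated mice at 15 weeks and 7.30, 7.80, 8.01 and 8.64 at 20 weeks. In grouped mice the Myh11 levels were 8.72, 8.60, 8.95 and 8.42 at 15 weeks and 8.07, 8.58, 8.83 and 8.55 at 20 weeks. Replicate 4 of isolated mice at 20 weeks came close to the 15-week arrays, and replicate 1 was the lowest of all. The centred difference was -1.04 in isolated mice (SE 0.22, adjusted p = 0.00341, limma), a 2.06-fold decrease, and -0.39 in grouped mice (SE 0.16, adjusted p = 0.084, limma). The second Myh11 probe set did not pass in isolated mice (-0.18, adjusted p = 0.0906, limma).

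Cnn1, which binds actin and restrains contraction, had levels of 8.46, 8.67, 9.20 and 8.63 in grouped and 8.99, 8.70, 8.87 and 8.80 in isolated mice at 15 weeks. At 20 weeks the Cnn1 levels were 8.36, 8.53, 8.54 and 8.35 in grouped and 7.69, 8.14, 8.34 and 8.37 in isolated mice. Isolated arrays of the ages did not overlap, and grouped arrays overlapped in deposited but not in centred values. The centred difference of Cnn1 was -0.93 in isolated mice (SE 0.13, adjusted p = 0.000431, limma) and -0.52 in grouped mice (SE 0.14, adjusted p = 0.017, limma). The grouped call was lost in deposited values, at -0.30 with an adjusted p of 0.0874 (limma).

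Acta2 had levels of 12.26, 12.15, 12.44 and 12.20 in isolated mice at 15 weeks and 11.47, 11.75, 11.92 and 12.12 at 20 weeks. Its levels in grouped mice were 12.18, 12.17, 12.42 and 12.16 at 15 weeks and 11.75, 12.07, 12.43 and 12.11 at 20 weeks. The isolated arrays of the ages were apart by a narrow gap, and the grouped arrays overlapped. Acta2 was 0.67 lower at 20 weeks in isolated mice (SE 0.12, adjusted p = 0.00161, limma), and the difference in grouped mice was -0.37 (SE 0.13, adjusted p = 0.0515, limma). Its brightest probe set is of a type that may also read other transcripts. The dimmer Acta2 probe sets lay below the lower quartile of every array.

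Mylk, the kinase that starts smooth muscle contraction by phosphorylating myosin light chain, had levels of 10.88, 10.79, 11.00 and 10.93 in isolated mice at 15 weeks and 10.39, 10.89, 10.63 and 11.05 at 20 weeks. Its ranges in grouped mice were 10.82 to 11.06 at 15 weeks and 11.05 to 11.31 at 20 weeks. The isolated arrays overlapped. The centred difference of Mylk in isolated mice was -0.38 (SE 0.12, adjusted p = 0.0234, limma). It lost the call in deposited values, at -0.16 with an adjusted p of 0.289 (limma). In grouped mice the centred difference was 0.05 (adjusted p = 0.633, limma), and the deposited one of 0.28 passed (adjusted p = 0.0155, limma). Tagln ranged from 10.68 to 11.12 over all 16 arrays and passed in neither housing, with centred differences of -0.23 in grouped mice (adjusted p = 0.063, limma) and -0.03 in isolated mice (adjusted p = 0.763, limma).

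**Figure D2:**
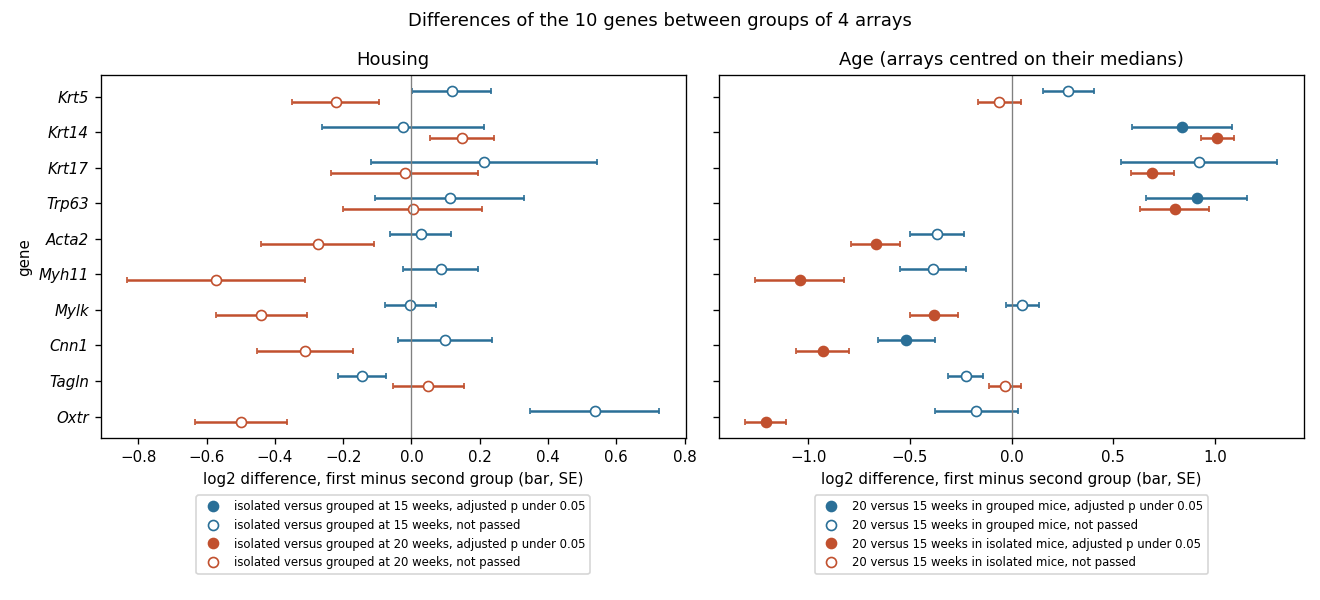
Log2 difference of each gene with its SE as a bar, for housing in the left panel (isolated minus grouped, deposited values) and for age in the right panel (20 minus 15 weeks, centred arrays); filled points passed an adjusted p of 0.05 in limma and open points did not. No point is filled for housing, while 8 points for isolated mice and 3 for grouped mice are filled for age.

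In grouped mice the calls of Krt14 and Trp63 depended on single arrays, whereas Cnn1 kept its call with each array left out (highest adjusted p = 0.0462, limma). The number of the 10 genes called there ran from 1 to 6 when each array was left out in turn, with 1 called without replicate 2 at 15 weeks or replicate 1 at 20 weeks and 6 without replicate 4 at 15 weeks or replicate 3 at 20 weeks. The differences stayed between 0.74 and 0.82 for Krt14 and between 0.81 and 0.86 for Trp63 where the call was lost. Krt14 missed the threshold without replicate 2 at 15 weeks (adjusted p = 0.0701, limma) or without replicate 1, 2 or 4 at 20 weeks, and Trp63 missed it without replicate 2 at 15 weeks (adjusted p = 0.0508, limma) or without replicate 1 or 2 at 20 weeks. With the difference between the 3' and 5' control probe sets of Gapdh, a sign of RNA quality, as a covariate, 0 of the 10 genes were called in grouped mice and 8 in isolated mice. The grouped differences were then 0.94 for Trp63 (SE 0.39), 0.64 for Krt14 (SE 0.37) and -0.43 for Cnn1 (SE 0.21). In isolated mice 7 or 8 genes were called whichever array was left out. Among these, Mylk alone lost its call, without replicate 1, 3 or 4 at 15 weeks or replicate 3 at 20 weeks, with adjusted p values up to 0.0668 (limma).

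Probe sets of the same gene were set side by side to see how far a call depended on the probe set. When every probe set was tested on centred arrays, 7 of 22 were higher and 3 lower at 20 weeks in grouped mice. These stand beside 19.1% and 18.8% of all probe sets. In isolated mice 8 of 22 were higher and 10 lower, beside 27% and 22.8%. All 3 Krt14 and all 4 Trp63 probe sets rose in both housings, and all 3 Mylk probe sets fell in isolated mice, by 0.22 to 0.55. The falls depended in part on centring. In deposited values the dimmest Mylk probe set had means of 7.636 at 15 weeks and 7.643 at 20 weeks in isolated mice. The Acta2 probe set with a mean of 6.41 fell in both, by 0.35 in grouped and 0.32 in isolated mice after centring. Its deposited means went from 6.47 to 6.35 in grouped and from 6.46 to 6.36 in isolated mice. The Acta2 probe set with a mean of 5.14 passed in neither.

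**Figure D3:**
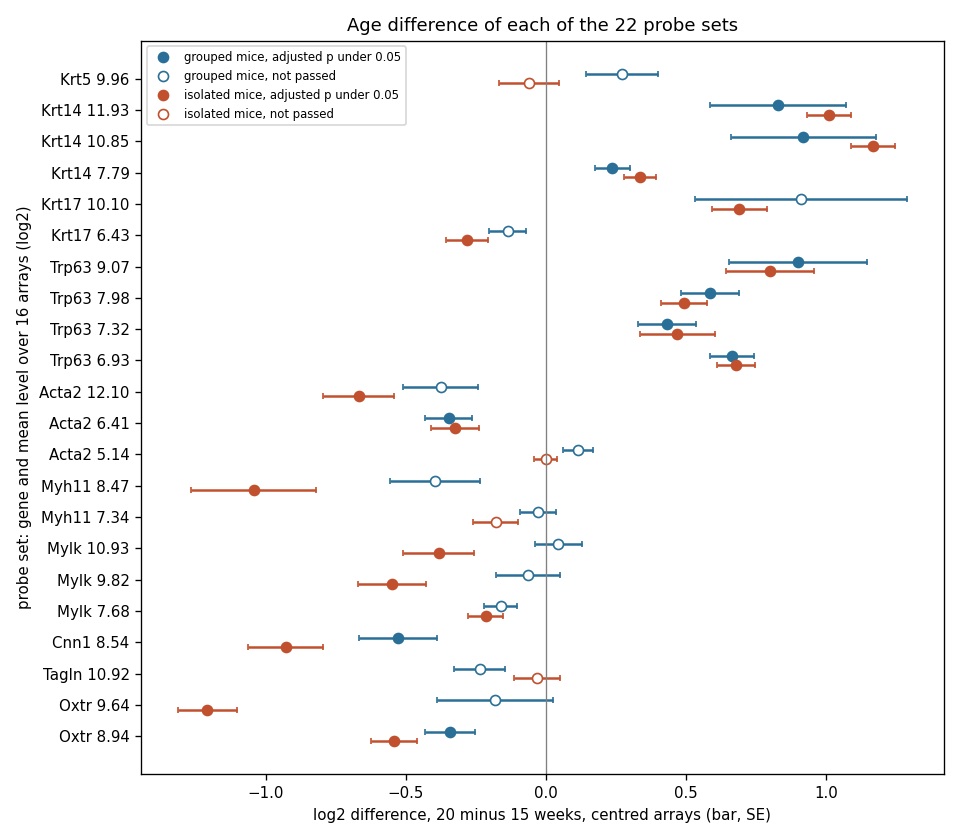
Log2 difference between 20 and 15 weeks (centred arrays) for each of the 22 probe sets with its SE as a bar, labelled by gene and by mean level over the 16 arrays; filled points passed an adjusted p of 0.05 over all probe sets. The Krt14 and Trp63 probe sets lie right of 0 in both housings, and both Oxtr probe sets of isolated mice lie left of it, at -1.21 and -0.54.

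Housing was compared at each age on deposited values. At 15 weeks 0 of the 10 genes passed the test between isolated and grouped mice in limma, beside 0.044% of all genes. With no adjustment, 1 of 10 had a p under 0.05, beside 9.7% of all genes. That gene was Oxtr, whose 4 isolated arrays, from 10.13 to 10.19, all lay above the 4 grouped arrays, from 8.98 to 10.11. No other gene of the 10 had groups that did not overlap, beside 5.69% of all genes. The Oxtr difference was 0.54 (SE 0.19, adjusted p = 0.433, limma), and the second Oxtr probe set differed by 0.07. The next smallest p was that of Tagln, at -0.14 (adjusted p = 0.533, limma), and the other differences ran from -0.02 for Krt14 to 0.21 for Krt17.

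At 20 weeks 0 of the 10 genes passed in limma, beside 0.011% of all genes, and 2 of 10 had an unadjusted p under 0.05, beside 8.49%. Oxtr was again the only gene of the 10 without overlap, beside 4.2% of all genes, but with isolated arrays below grouped ones, at 8.81 to 9.37 against 9.43 to 9.90. Its difference was -0.50 (SE 0.13, adjusted p = 0.465, limma), and that of the second Oxtr probe set was -0.14 (adjusted p = 0.696 among all probe sets, limma). Mylk differed by -0.44 (SE 0.13, adjusted p = 0.524, limma), Myh11 by -0.57 (SE 0.26, adjusted p = 0.59, limma), Cnn1 by -0.31 and Acta2 by -0.27. The sign was negative for 7 of the 10 genes and for 5 of the 6 contractile genes and Oxtr, with a median of -0.38 for those 6 against -0.01 over all genes. The keratins and Trp63 had differences from -0.22 for Krt5 to 0.15 for Krt14.

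The difference between the housing effects at the ages was tested with all 16 arrays, and 0 of the 10 genes passed in limma, beside 0.011% of all genes. With no adjustment 3 of 10 had a p under 0.05, beside 12.7%. They were Oxtr at -1.04 (SE 0.26, adjusted p = 0.181), Mylk at -0.44 (SE 0.16, adjusted p = 0.284) and Myh11 at -0.66 (SE 0.30, adjusted p = 0.383), all in limma. The second Oxtr probe set gave -0.21 (adjusted p = 0.563 among all probe sets, limma). The larger falls with age in isolated mice were therefore not shown to differ from those in grouped mice. Oxtr was 1 of 10 genes (0.055% of those tested) whose isolated arrays lay above all grouped arrays at 15 weeks and below them all at 20 weeks. Another 31 genes (0.17%) crossed in the opposite direction, also without overlap at either age. With limma's array weights, Oxtr passed at 15 weeks (0.58, adjusted p = 0.0322) and in the interaction (-0.94, adjusted p = 0.0178), where the weights also moved the counts over all genes from 8 to 494 and from 2 to 778.

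The spread among arrays of a group differed as well, which is given without a test. At 15 weeks the SD over 4 arrays was larger in grouped than in isolated mice for 8 of the 10 genes, beside 69.3% of all genes. For Oxtr it was 0.48 against 0.03, for Krt17 0.86 against 0.10, for Krt14 0.61 against 0.08 and for Trp63 0.55 against 0.12. At 20 weeks the SD was larger in isolated than in grouped mice for 6 of 10, beside 62.6% of all genes, as for Myh11 with 0.55 against 0.32.

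Levels were also compared among the arrays of a group. For each pair of genes, the deviations of the 16 arrays from their group means were correlated, with p from permutation within groups and adjustment over the 45 pairs. All 6 pairs among the keratins and Trp63 had a positive Pearson r (median 0.54), as had all 15 pairs among the contractile genes and Oxtr (median 0.61). Between the sets, 16 of 24 pairs had a negative r and 8 a positive one, and 4 pairs, all negative, passed. With Krt5 and Tagln set aside after their values were seen, 15 of 15 were negative (median -0.59). By both Pearson's r and Spearman's rho, 9 of the 45 pairs had adjusted permutation p under 0.05, 5 positive and 4 negative. The share over all gene pairs was not computed, so these counts are not shown to be particular to the 10 genes. Genes outside the 10 reached r of 0.96 with Trp63 (Hmgxb4) and 0.97 with Myh11 (Otop1). The positive pairs were Krt17 with Krt14 and with Trp63, and all pairs among Acta2, Myh11 and Cnn1. The negative pairs were Krt17 and Trp63, each with Acta2 and with Myh11.

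Trp63 and Myh11 gave r = -0.80 and rho = -0.80 (adjusted permutation p = 0.00382 and 0.0108). Within the 8 arrays of 15 weeks r was -0.86, within those of 20 weeks -0.91, and without the 2 arrays farthest from the median of Trp63 -0.88. Trp63 and Acta2 gave r = -0.76 and rho = -0.84 (adjusted permutation p = 0.0054 and 0.0045), with -0.65 at 15 weeks, -0.93 at 20 weeks and -0.89 without the 2 farthest arrays. Arrays above their group mean in Trp63 tended to lie below it in both smooth muscle genes. The closest positive pairs were Acta2 with Myh11 (r = 0.93, rho = 0.96, adjusted permutation p = 0.00112 and 0.00135) and Krt17 with Trp63 (r = 0.92, rho = 0.91, adjusted permutation p = 0.00112 and 0.0045). Within 15 and 20 weeks r was 0.88 and 0.94 for the first pair and 0.97 and 0.87 for the second, and without the 2 farthest arrays it was 0.94 and 0.83. Krt5 had no pair that passed, with r of 0.12 to Krt14, 0.39 to Krt17 and 0.08 to 0.50 to the contractile genes and Oxtr.

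**Figure D4:**
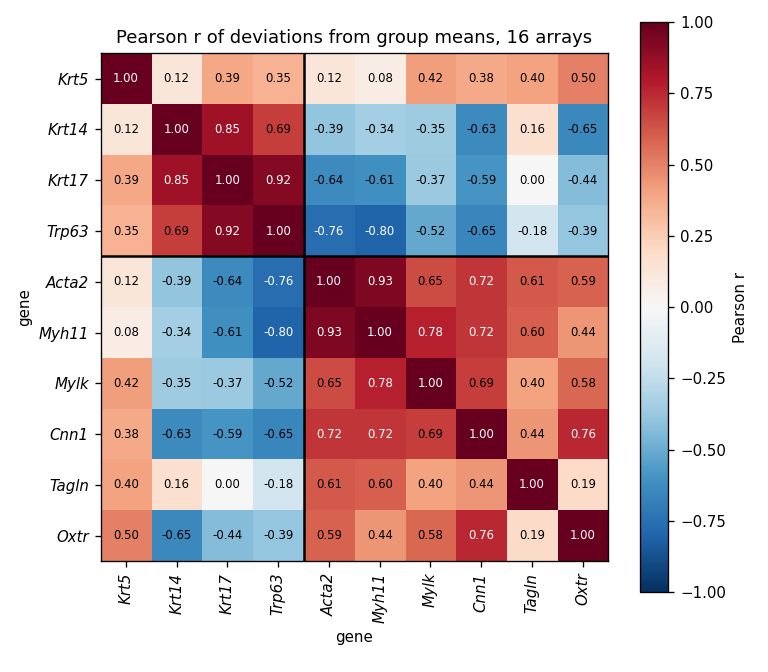
Pearson r between the deviations of each pair of the 10 genes from their group means over 16 arrays; the lines separate keratins and Trp63 from contractile genes and Oxtr. Both diagonal blocks are positive throughout, and Krt14, Krt17 and Trp63 are negative against Acta2, Myh11, Mylk, Cnn1 and Oxtr, down to -0.80 for Trp63 with Myh11.

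**Figure D5:**
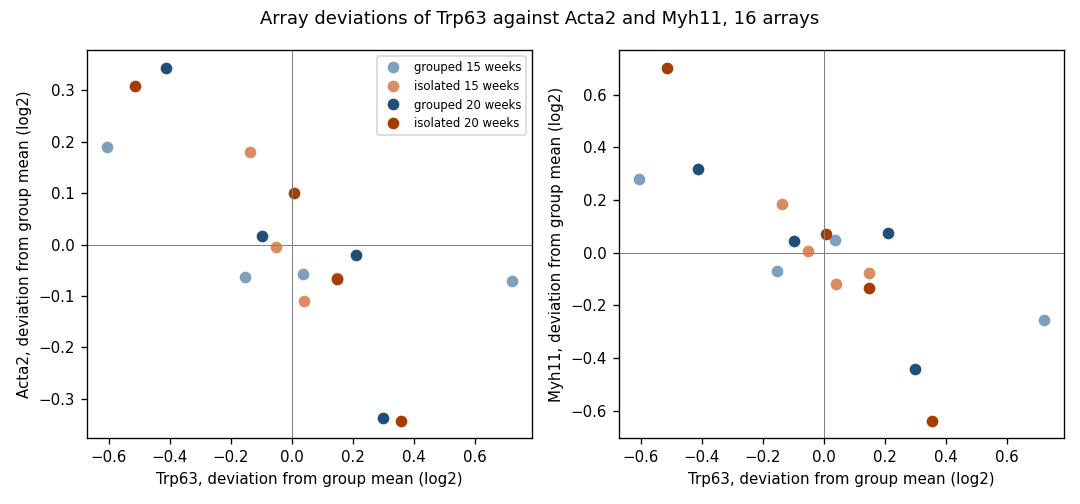
Deviation of each of the 16 arrays from its group mean (log2) for Trp63 on the horizontal axis and for Acta2 (left) or Myh11 (right) on the vertical axis, coloured by group. Points run from upper left to lower right in both panels, with r of -0.76 and -0.80.

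Single arrays stood at the ends of several ranges. Replicate 3 of grouped mice at 15 weeks had the lowest Krt14, Krt17 and Trp63 of its group and the highest Acta2, Myh11, Mylk, Cnn1 and Oxtr. It also had the lowest mean of 7 cell division genes in its group, 10.83, while replicate 4, the highest in Krt17 and Trp63, had the highest, 11.60. Replicate 1 of isolated mice at 20 weeks had the highest Krt14, Krt17 and Trp63 of its group and the lowest Acta2, Myh11, Mylk, Cnn1 and Oxtr. It was also the lowest of its group in the means of 12 skeletal muscle genes (12.17), 8 endothelial genes (8.33) and 8 adipocyte genes (11.22). Its mean of the 7 cell division genes, 12.36, was the highest of its group. Replicate 4 of that group, the highest in Acta2, Myh11, Mylk and Cnn1, had the highest endothelial (9.47) and adipocyte (12.35) means. Replicate 1 of grouped mice at 20 weeks had the highest Krt14, Krt17 and Trp63 and the lowest Acta2 and Myh11 of its group. That array had the lowest skeletal muscle (12.91) and endothelial (9.00) means of its group, but the highest adipocyte mean (12.61). The part of these cell types in the results was not tested.

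Other genes were taken from lists of the same layers and pathways and of other cell types and processes. Of 171 genes in all these lists, 160 were measured, 62 of them in the 4 lists of the same layers and pathways. The counts with age below stand beside 26.2% of all genes that rose and 23.3% that fell in isolated mice, and 18.8% and 18.6% in grouped mice. Among 22 further basal genes, 9 rose and 3 fell at 20 weeks in isolated mice, with a median difference of 0.15. The largest were Dst (-0.90), which anchors keratins in hemidesmosomes, and Sfn (0.72) and Perp (0.64), an epithelial 14-3-3 protein and a desmosome protein that is a p63 target. In grouped mice 5 rose and 2 fell, with a median of 0.09, led by the hemidesmosome genes Col17a1 (0.60) and Itgb4 (0.56) and by Perp (0.58).

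Among 20 further contractile genes, 11 fell and 5 rose in isolated mice, with a median of -0.35, led by Pdlim3 (-0.90), Myl9 (-0.70) and Tpm2 (-0.68). In grouped mice 2 fell and 2 rose, with a median of -0.03. Myl9, a regulatory light chain of smooth muscle myosin, fell there by 0.70 as well, while Flna (0.49) and Cald1 (0.42), which bind actin, rose. Pdlim3 and Tpm2 are also made by skeletal muscle. The split of the contractile list depended on centring: in deposited values 4 of the 20 were lower and 7 higher in isolated mice, and 1 was lower and 8 were higher in grouped mice. The further basal genes had 1 lower and 14 higher in isolated and 0 lower and 13 higher in grouped mice in those values.

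Serum response factor works with partners that direct it to muscle or to growth genes. Of 8 genes listed around this factor, which included Srf itself and Vcl, 2 rose and 1 fell in isolated mice. Fhl2 (1.14) and Elk4 (0.31) were higher and Myocd (-0.39), the coactivator of smooth muscle genes, was lower. In grouped mice 3 rose, Fhl2 (0.80), Mrtfb (0.39) and Elk4 (0.31), and 0 fell. Of 12 genes of oxytocin signalling downstream of the receptor, 3 rose and 3 fell in isolated mice, among them the calcium release channel gene Itpr3 (0.75), the phospholipase gene Plcb4 (-0.60) and the kinase gene Rock1 (0.29). In grouped mice 3 rose and 1 fell, with Itpr3 at 0.79, the G protein gene Gna11 at -0.24 and Plcb3 at 0.23. The calls in both lists, 3 of 8 and 6 of 12 in isolated and 3 of 8 and 4 of 12 in grouped mice, stand beside 49.5% and 37.4% of all genes. In deposited values 0 of the 8 genes were lower in either housing, and of the 12 genes 1 was lower in isolated and 0 in grouped mice. 

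With housing, 0 of the 62 genes of these 4 lists passed in limma at either age or in the interaction, and 7, 10 and 11 had an unadjusted p under 0.05, beside 9.7%, 8.49% and 12.7% of all genes. The smallest adjusted p values were 0.303 at 15 weeks, 0.488 at 20 weeks and 0.23 in the interaction. At 15 weeks the genes of smallest p were Procr (-0.38) and Dst (0.23) among basal genes, Ppp1r12b (0.27) and Kcnmb1 (0.15) among contractile genes, Elk4 (-0.15) and Myocd (0.15) among partners of serum response factor, and Ppp1r12a (-0.16) and Camk2g (0.18) in oxytocin signalling. At 20 weeks they were Ngfr (0.41) and Snai2 (0.36), Lmod1 (-0.29) and Tpm1 (-0.41), Fhl2 (0.25) and Mrtfa (0.17), and Plcb4 (-0.42) and Camk2g (-0.22) in the same order. In the interaction they were Snai2 (0.39) and Dst (-0.61), Ppp1r12b (-0.61) and Kcnmb1 (-0.21), Fhl2 (0.33) and Mrtfb (-0.22), and Plcb4 (-0.50) and Camk2g (-0.40). Of the 20 further contractile genes, 17 had a negative difference at 20 weeks, with a median of -0.11 against -0.01 over all genes.

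Markers of other cell types were counted beside the same shares of all genes, 49.5% called in isolated and 37.4% in grouped mice. Of 13 markers of vascular smooth muscle and pericytes, which share the contractile genes, 4 fell and 1 rose in isolated mice, with Notch3 at -0.37, Olfr558 at -0.34 and Mcam at 0.32. In grouped mice 1 rose, Casq2 (0.64), and 0 fell. In deposited values 3 rose and 0 fell in isolated mice, and 5 rose and 0 fell in grouped mice. The array means of this list lay between 9.04 and 9.14 in isolated mice at 15 weeks, 8.98 and 9.35 in isolated mice at 20 weeks, 8.95 and 9.14 in grouped mice at 15 weeks, and 9.23 and 9.34 in grouped mice at 20 weeks. Of 12 fibroblast and myofibroblast genes, 3 rose and 0 fell in isolated mice, led by Tnc (1.78), and 0 rose and 3 fell in grouped mice, led by Pdgfra (-0.91). Of 14 squamous epithelium genes, 7 rose in each housing, with Dsg1a at 1.40 in isolated and 1.67 in grouped mice and Krt6a at 1.12 and 1.31, while 2 fell in isolated and 1 in grouped mice.

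All 12 skeletal muscle genes fell in isolated mice (median -0.81), and 1, Myh2, rose in grouped mice. The array means of that list lay between 13.11 and 13.60 at 15 weeks and between 12.17 and 13.00 at 20 weeks in isolated mice, and between 12.90 and 13.34 and between 12.91 and 13.60 in grouped mice. All 8 adipocyte genes fell in both housings, with medians of -1.60 in isolated and -0.81 in grouped mice. Their array means went from 12.78 to 13.00 at 15 weeks to 11.22 to 12.35 at 20 weeks in isolated mice, and from 12.68 to 13.23 to 12.27 to 12.61 in grouped mice. Of 8 endothelial genes, 5 fell in isolated mice and 1 in grouped mice. The endothelial array means lay between 9.17 and 9.41 at 15 weeks and between 8.33 and 9.47 at 20 weeks in isolated mice. Of 7 cell division genes, 6 rose in each housing, with medians of 0.61 in isolated and 0.59 in grouped mice. Among 16 luminal markers, 5 rose and 6 fell in isolated mice, led by Foxa1 (-1.70), and 6 rose and 2 fell in grouped mice. Of 8 macrophage and leukocyte genes, 2 rose in isolated and 3 fell in grouped mice. In deposited values the genes that fell were 9 of 12 for skeletal muscle, 7 of 8 for adipocytes and 3 of 8 for endothelium in isolated mice. In grouped mice they were 0, 6 and 0, and 0 for macrophages. How far these cell types set the levels of the 10 genes was not tested.

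The genes whose array deviations were most like those of each of the 10 were picked as the 3 highest Pearson r over 16 arrays, a description without a test. For Oxtr these were Nubpl (0.93), Il17b (0.91) and Enpp3 (0.90). For Trp63 they were Hmgxb4 (0.96), Tctn1 (0.95) and Inip (0.94), and for Krt17 Junb (0.96), Sfn (0.96) and Bdh1 (0.95). Krt14 had Tnc (0.94), Ddx39a (0.93) and Moxd1 (0.93), and Krt5 had Pdzk1ip1 (0.89), Togaram1 (0.83) and Pgk2 (0.83). Among the contractile genes, Acta2 had Galnt15 (0.94), Fbp2 (0.94) and Hspa12b (0.93), Myh11 had Otop1 (0.97), Slc27a2 (0.97) and Letmd1 (0.96), and Mylk had the luminal keratin Krt19 (0.91), Sox7 (0.91) and Kdm5b (0.89). Cnn1 had Nim1k (0.95), Zfp870 (0.88) and Mfsd4b1 (0.88), and Tagln had 4930584F24Rik (0.87), Csgalnact1 (0.86) and Fam43a (0.84). Of these, Sfn and Tnc also stand in the basal and fibroblast lists above.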

How the data were processed

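Total RNA of whole glands was measured on 16 Affymetrix mouse arrays. The deposited log2 values were made by the authors with RMA in affy, per the submitters' processing notes (versions not given). Of 45101 probe sets, 34945 had 1 gene symbol in the platform table and 932 had several, with 64 Affymetrix controls left out of both counts. Those without a listed symbol, controls included, were 9211. The 10 genes, the further lists and the tests were chosen with earlier results of these data known. For each of 18193 genes the probe set of highest mean level was fitted with limma 3.58.1 in R 4.3.3 (lmFit, eBayes with an intensity trend), on the 8 arrays of a comparison or all 16 for the interaction. P-values were adjusted by Benjamini-Hochberg over all genes, with a threshold of 0.05. Age fits used arrays centred on their median gene. With centring, 3418 genes were higher and 3381 lower in grouped mice, and 4773 and 4240 in isolated mice. In deposited values the splits were 10196 and 1166, and 10422 and 1697. Correlations used 1e+05 permutations within groups. All 10 genes are named in each comparison. In the further lists, up to 3 genes that passed are named by size, and otherwise the 2 of smallest p (for housing, in the lists of the same layers and pathways). No arrays were duplicates (SD of the difference within a group 0.111 or more). Fits were tested on simulated data, and alternatives are given in the closing section. The number of arrays limits precision. The probe set shared by Krt17 and Krt14 was left out.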

Additional observations from a re-analysis of the deposited data

Results flagged for a closer look

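Acta2 on replicate 3 of grouped mice at 15 weeks had a log2 level of 12.42, far from the other arrays of its group, which lay between 12.16 and 12.18. Its gap to the nearest array took 0.949 of the range of the group, above Dixon's critical value at the 95% level for 4 arrays. The same array had the highest Myh11, Mylk, Cnn1 and Oxtr and the lowest Krt14, Krt17 and Trp63 of the group. It was the 1 array flagged among 40 combinations of gene and group, and chance flags about 1 in 20 groups.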

How the results depend on the processing

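Of 980 comparisons of a gene's value under an alternative, 898 kept the direction and side of the threshold, 27 newly passed, 17 no longer passed and 38 changed sign. All sign changes were in differences that had not passed. Housing at 15 weeks changed sign for Acta2 (-0.14) and Myh11 (-0.19) with the Gapdh covariate, for Krt14 with array weights (0.14) and quantile normalization (0.050), and for Mylk with array weights (0.0011), the most variable probe set (4.52e-05) and quantile normalization (0.060). With single arrays left out, it ran from -0.033 to 0.090 for Acta2, -0.26 to 0.15 for Krt14, -0.12 to 0.56 for Krt17, -0.090 to 0.35 for Trp63 and -0.035 to 0.050 for Mylk. Housing at 20 weeks changed sign for Krt17 with the Gapdh covariate (0.022) and for Trp63 with array weights (-0.0095), and ran from -0.22 to 0.16 for Krt17, -0.13 to 0.17 for Trp63 and -0.013 to 0.11 for Tagln with single arrays left out. The age difference changed sign in deposited values for Krt5 (0.16) and Tagln (0.19) in isolated and Oxtr (0.050) in grouped mice, with array weights for Krt5 (0.072), with the Gapdh covariate for Oxtr (0.065) and with the most variable probe set for Mylk in grouped mice (-0.088). It ran from -0.13 to 0.042 for Krt5 and -0.078 to 0.017 for Tagln in isolated mice with single arrays left out. The interaction changed sign for Krt14 with array weights (-0.10) and ran from -0.58 to 0.098 for Krt17 and -0.35 to 0.094 for Trp63.

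Of the 10 genes, 3 were called with age in grouped mice, against 5 with the most variable probe set, 7 with array weights, 0 with the Gapdh covariate, 5 in deposited values (all higher), 6 with all 16 arrays and 1 to 6 with single arrays left out. The counts in isolated mice were 6 to 8. Array weights called 1 gene for housing at 15 weeks and 1 in the interaction, against 0. A filter at the median gene level left out Myh11 and Cnn1. Of all genes, 8 were called for housing at 15 weeks, against 4 (every probe set), 494 (array weights), 2 (Gapdh covariate), 2 (all 16 arrays) and 0 to 31 without single arrays. At 20 weeks 2 were called, against 4 (every probe set), 4 (array weights), 8 (all 16 arrays) and 0 to 136, the last without isolated replicate 4. In the interaction 2 were called, against 1 (filter), 1 (no trend), 778 (array weights) and 0 to 139. With age, 6799 in grouped mice became 3375 (filter), 17068 (every probe set), 2006 (Gapdh covariate) and 11362 (deposited values), and 9013 in isolated mice became 4892 (filter) and 22465 (every probe set). The filter and the use of every probe set change the number of features tested, and the cause of the other changes was not tested.

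Arrays were not treated as paired by replicate number. Same-numbered arrays of grouped and isolated mice correlated at 0.10, -0.10, 0.36 and 0.36 at 15 weeks. At 20 weeks they correlated at 0.42, -0.16, 0.49 and -0.10. Arrays of unlike numbers correlated at -0.29 to 0.13 at 15 weeks and at -0.64 to 0.26 at 20 weeks. These few values cannot exclude a pairing. With the replicate number as a block, 17 genes were called at 15 weeks against 8 without it, and 8 in the interaction against 2. Of the 10 genes, 5 were called with age in grouped mice against 3. Not every array correlated best with its own number. The dimmer Krt17 and Acta2 probe sets, with means of 6.43, 6.41 and 5.14, lay below the lower quartiles of all arrays, as did the dimmest Trp63 probe set at 15 weeks, so signal over background limits them.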

Other observations

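The probe set that the platform table gives to both Krt17 and Krt14, which belongs to neither gene alone, had a mean level of 7.71. Its centred age difference was -0.03 in grouped mice (adjusted p = 0.78 among all probe sets, limma) and -0.12 in isolated mice (adjusted p = 0.115, limma), unlike the centred differences of the Krt14 probe sets. In deposited values its means rose, from 7.61 to 7.81 in grouped and from 7.65 to 7.76 in isolated mice.

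Within each of 5 lists of other cell types, all genes had differences of the same sign with housing at 20 weeks. None passed in limma, and 22 of the 48 genes had an unadjusted p under 0.05, beside 8.49% of all genes. Of all genes, 46.7% had a positive difference there. All 12 fibroblast genes and all 8 macrophage and leukocyte genes were positive (isolated minus grouped), with medians of 0.37 and 0.55. The genes of smallest p in these lists were Cthrc1 at 0.96 (adjusted p = 0.422, limma) and Tyrobp at 0.60 (adjusted p = 0.577, limma). All 12 skeletal muscle, all 8 endothelial and all 8 adipocyte genes were negative, with medians of -0.57, -0.39 and -0.74. Not every list was of 1 sign: squamous genes had 8 positive and 6 negative differences. Vascular smooth muscle and pericyte genes had 6 and 7, and luminal genes had 1 and 15. At 15 weeks the signs were reversed for fibroblast genes (11 of 12 negative), macrophage genes (8 of 8 negative) and skeletal muscle genes (12 of 12 positive). Endothelial genes (5 of 8 positive) and adipocyte genes (5 of 8 negative) were split at that age. Genes of one cell type are not independent of each other, so these counts describe the 8 arrays of each age.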
